A study of Mus musculus with 18 samples.

Results

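The 34 genes described here carry out glycolysis or belong to the response to low oxygen. They were chosen by name, and all 34 were found among the 23652 entries of the deposited expression table, which writes them in upper case (HIF1A, VEGFA, BNIP3, LDHA and so on). The set holds 17 glycolytic enzymes, 4 glucose and lactate transporters, 3 kinases that steer glycolytic flux, 2 hypoxia-inducible factor subunits, 2 of the prolyl hydroxylases that inactivate those factors, and 6 hypoxia-inducible genes. They were measured by RNA sequencing in 18 libraries from mouse thyroid cells that carry a yellow fluorescent protein and were sorted for it, 9000 to 20000 cells per library, at 20 weeks. Of the tumour libraries, 4 came from mice with BrafV600E and K5-Tert, 7 from mice with BrafV600E and the Tert-123C>T allele, and 4 from mice with BrafV600E alone. They are called K5-Tert tumours, Tert-123 tumours and Braf tumours below. The other 3 libraries are pools without BrafV600E, 1 each with K5-Tert, with Tert-123C>T and wild-type. All were labelled as naive thyrocytes. In the K5-Tert mouse line a transgene drives Tert from a keratin promoter and not from the Tert gene itself. Each pool is a single library from an unstated number of mice, and the driver of BrafV600E is not given in the sources used here. Nothing in the labels says that each tumour library came from a separate mouse, so p-values measure the spread between these libraries, which may be partly technical.

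Glycolysis splits glucose into pyruvate, which lactate dehydrogenase turns into lactate or pyruvate dehydrogenase passes to the mitochondria. In low oxygen the prolyl hydroxylases lose activity, the proteins HIF1A and EPAS1 escape degradation, pair with ARNT and bind the letters ACGTG or GCGTG near genes for glucose uptake, glycolysis, vessel growth and mitophagy. HIF activity is set mainly by the stability of these proteins, which RNA levels do not show. In thyroid cancer, avid uptake of glucose together with loss of iodide uptake marks poorly differentiated tumours in patients.

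The promoter sequences show how often those letters stand before the starts of these genes. RefSeq promoter entries (build GRCm38.p6) matched 31 of the 34 genes, in 45 windows of 250 bases that end at the base before an annotated start. On either strand, ACGTG or GCGTG was found in 35 of the 45 windows (77.8%), against 38.6% of all 32851 windows of the same length. Some windows of Aldoa, Eno1 and Pfkm overlap and count the same letters more than once. Both motifs hold CG, and the windows were not matched for base composition. The set was also chosen partly for known hypoxia genes, so this difference is a description and was not tested. The 2 motifs can overlap each other on opposite strands, as in CACGTG, which counts as 2 matches. Printed here are the windows of 4 genes that were lower in tumours than in the pools (Bnip3, Adm, Pdk1, Pfkfb3) and of 2 that were higher (Aldoc, Pkm), 5′ to 3′ on the gene's strand, with the motif letters in capitals. The window of Bnip3 held 5 matches, that of Pfkfb3 held 3, that of Adm held 2 and the other 3 windows held 1 each. Pfkfb3, Aldoc, Pdk1 and Pkm each have a second window, not printed, which held 1 match for Pfkfb3 and Aldoc and 0 for Pdk1 and Pkm. A match is a description of the letters and not a binding site.
Bnip3 (chr7:138909507-138909756, minus strand): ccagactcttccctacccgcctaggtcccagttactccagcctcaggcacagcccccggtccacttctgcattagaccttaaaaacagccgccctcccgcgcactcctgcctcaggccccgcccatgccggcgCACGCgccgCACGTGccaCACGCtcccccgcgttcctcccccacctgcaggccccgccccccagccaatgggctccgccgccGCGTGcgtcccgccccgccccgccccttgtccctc
Adm (chr7:110627407-110627656, plus strand): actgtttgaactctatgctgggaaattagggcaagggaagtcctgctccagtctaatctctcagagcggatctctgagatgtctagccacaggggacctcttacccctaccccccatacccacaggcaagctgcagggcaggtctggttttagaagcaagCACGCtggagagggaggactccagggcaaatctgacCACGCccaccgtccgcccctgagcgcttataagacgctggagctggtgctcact
Pdk1 (chr2:71872974-71873223, plus strand): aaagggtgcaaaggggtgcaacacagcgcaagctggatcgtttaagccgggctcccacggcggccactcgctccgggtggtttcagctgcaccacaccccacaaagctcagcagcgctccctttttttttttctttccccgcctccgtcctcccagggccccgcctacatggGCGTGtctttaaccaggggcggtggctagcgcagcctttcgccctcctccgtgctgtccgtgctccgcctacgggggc
Pfkfb3 (chr2:11502091-11502340, minus strand): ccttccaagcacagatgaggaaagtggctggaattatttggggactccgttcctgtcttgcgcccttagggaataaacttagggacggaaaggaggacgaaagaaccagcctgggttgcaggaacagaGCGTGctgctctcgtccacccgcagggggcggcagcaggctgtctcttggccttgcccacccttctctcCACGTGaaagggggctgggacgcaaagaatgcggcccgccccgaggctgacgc
Aldoc (chr11:78322823-78323072, plus strand): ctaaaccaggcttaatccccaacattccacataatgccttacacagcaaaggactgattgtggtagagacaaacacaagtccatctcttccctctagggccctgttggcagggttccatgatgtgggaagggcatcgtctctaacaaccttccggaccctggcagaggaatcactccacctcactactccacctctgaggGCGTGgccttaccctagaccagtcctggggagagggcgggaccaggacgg
Pkm (chr9:59656977-59657226, plus strand): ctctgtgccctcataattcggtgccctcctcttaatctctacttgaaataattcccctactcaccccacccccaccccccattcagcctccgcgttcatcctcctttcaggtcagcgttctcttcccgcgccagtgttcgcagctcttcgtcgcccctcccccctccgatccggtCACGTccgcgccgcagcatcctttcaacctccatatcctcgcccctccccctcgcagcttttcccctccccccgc

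The table holds no read counts, so the depth is unknown, and 10958 to 15045 genes reached 1 TPM (transcript abundance scaled to a fixed total, a level per transcript length) in a library. A single noncoding RNA, Rpph1, took 43.7% to 68.8% of the TPM of a library, and all other genes share the rest of the fixed total. K5-Tert tumours 2 and 4 stood apart from the other tumours. Their scaling factors, computed here as trimmed means of log ratios (TMM-type factors), were 0.547 and 0.627, against 0.870 to 1.31 in the other 13 tumours. They also had the fewest genes at 1 TPM of the tumours (11958 and 10958). Relative to the mean of the libraries, their levels fell most steeply with transcript length. The log2 slopes were -0.176 and -0.130, against -0.0687 to 0.0601 in the other tumours. Results that rest on these 2 libraries are also given without them, a choice made after seeing the data. Tert, the gene both alleles concern, reached 11.2 to 73.9 TPM in the K5-Tert tumours, 2.65 to 6.23 TPM in the Tert-123 tumours and 3.78 to 5.12 TPM in the Braf tumours, so that the ranges of the Tert-123 and Braf tumours overlapped. The K5-Tert pool had 125 TPM of it, the Tert-123 pool 8.79 TPM and the wild-type pool 2.15 TPM. The 12 thyrocyte markers, which define the labelled cell type, were detected in every tumour group but summed to 418 to 1334 TPM in tumours, against 26919 to 33397 TPM in the pools, where Slc26a4 was listed at 0 in the Tert-123 and wild-type pools.

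Each step of glycolysis except enolase had at least 1 gene of the set above 10 TPM in every library. The 17 enzymes together took 0.0860% to 0.190% of a library's TPM, or 0.276% to 0.444% of the TPM outside Rpph1, and Aldoa, Pkm, Gapdh and Ldha made up 59.7% to 72.3% of that sum. Aldoa, the main aldolase, was the most abundant by mean over the tumours at 348 ± 76.5 TPM, followed by Pkm, the pyruvate kinase gene, at 293 ± 58.8 TPM, Gapdh at 194 ± 62.1 TPM and Ldha, the lactate-forming dehydrogenase subunit, at 157 ± 33.1 TPM (SD, n = 15 for each). Neighbours in this order overlapped between tumours. Ldhb, the other dehydrogenase subunit, averaged 100.3 ± 26.5 TPM and Gpi1, the glucose phosphate isomerase, 91.9 ± 22.9 TPM. The plot of levels along glycolysis shows each library.

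**Figure D1:**
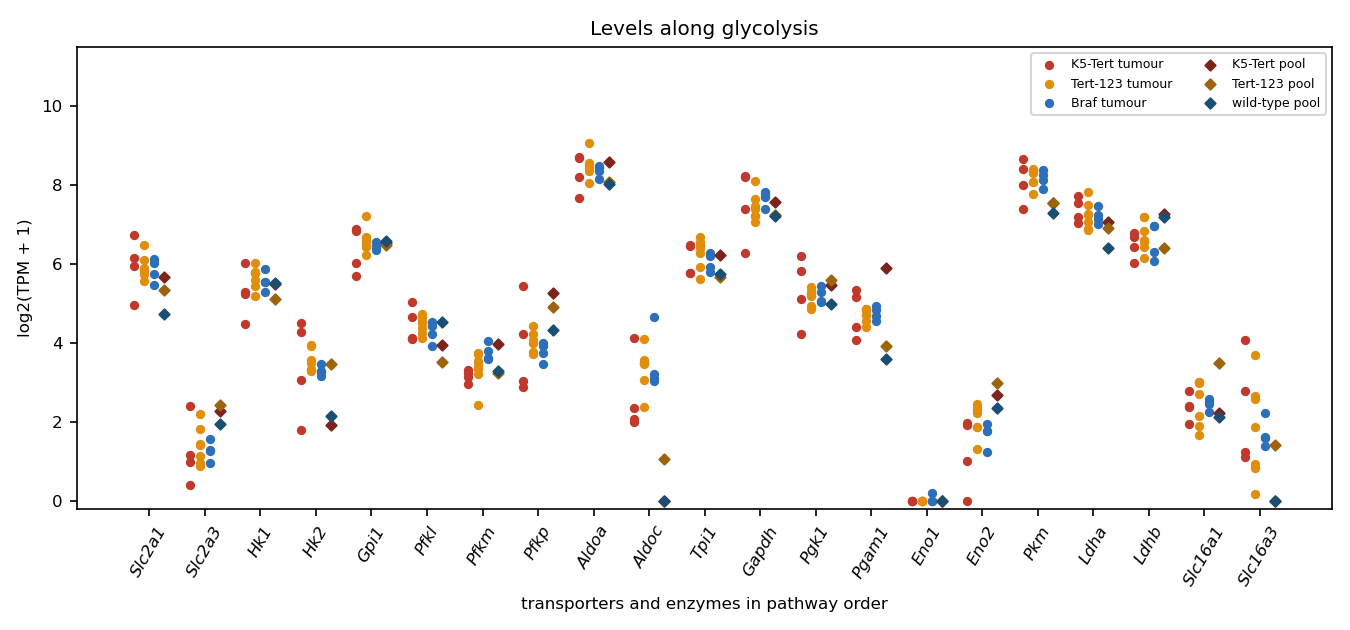
Levels of the 17 enzymes and 4 transporters as log2(TPM + 1), in pathway order from glucose uptake to lactate export, with 1 point per library coloured by group (circles, tumours; diamonds, single pools). Aldoa lies first or second among the enzymes in every library, Ldha lies below Ldhb in the K5-Tert and wild-type pools and in Tert-123 tumours 2 and 3, Hk1 lies above Hk2 and Slc2a1 above Slc2a3, and Eno1 lies at or near 0.

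Where several genes encode the same step, their levels differed more for glucose uptake and hexokinase than for phosphofructokinase. Slc2a1, the basal glucose transporter, had 30.1 to 106 TPM in the tumours and 25.7 to 50.5 TPM in the pools, whereas Slc2a3, a high-affinity glucose transporter, had 0.324 to 4.31 TPM in the tumours and 2.88 to 4.44 TPM in the pools. Hk1, the housekeeping hexokinase, had 21.5 to 64.8 TPM in the tumours and Hk2, the inducible one, 2.505 to 21.9 TPM. In the 15 tumours the 3 phosphofructokinase genes lay close together, with medians of 20.6 TPM for the liver-type Pfkl, 15.04 TPM for the platelet-type Pfkp and 9.80 TPM for the muscle-type Pfkm. The lactate carriers were low: Slc16a1, which carries lactate in either direction, had 2.19 to 7.10 TPM in the tumours, and Slc16a3, the exporter of glycolytic cells, had 0.136 to 16.0 TPM, with the highest levels in K5-Tert tumour 3 and Tert-123 tumour 4. K5-Tert tumour 3 and Tert-123 tumour 4 also had the highest sums of macrophage markers among the tumours, at 3885 and 5233 TPM. The part of macrophages in the Slc16a3 levels was not tested. Slc16a3 was listed at 0 in the K5-Tert and wild-type pools and at 1.67 TPM in the Tert-123 pool.

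Eno1 encodes the enolase that nearly every cell uses, yet it was listed at 0 in 17 of the 18 libraries, with 0.155 TPM in Braf tumour 3. A near-identical copy, Eno1b, had 0.507 to 1.14 TPM in the K5-Tert tumours, 2.06 to 16.2 TPM in the Tert-123 tumours and 0.965 to 16.5 TPM in the Braf tumours. Of the 100-base windows of the Eno1 transcript, 59.0% also occur in other genes, and the labels do not say how such reads were assigned, so the level of enolase 1 cannot be read from the table. The same sharing touches Gapdh (78.0% of windows), Pgk1 (67.0%), Pgam1 (39.7%), Pkm (9.82%) and Bnip3 (9.42%). These shares do not give the size of an error, and the effect of the sharing on their values was not tested. Eno2, the neuronal enolase, had 0 to 4.47 TPM in the tumours and 4.10 to 7.005 TPM in the pools.

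Genes of the hypoxia response lay at a wide range of levels. Ndrg1, a hypoxia-induced stress gene, and Vegfa, the main growth factor for vessels, stood highest, at 69.4 to 177 TPM (median 135 TPM) and 32.0 to 190.4 TPM (median 113 TPM) in the tumours. Car9, a membrane carbonic anhydrase often used to stain for hypoxia, was low, with 0 to 2.55 TPM in the tumours, and was listed at 0 in all 3 pools. Car12, a related anhydrase, was likewise at 0 in the pools and had 0 to 0.947 TPM in the tumours. Egln3, a prolyl hydroxylase that HIF itself induces, had 0 to 9.34 TPM in the tumours and 0.257 to 2.86 TPM in the pools. The heat map of all 34 genes shows their differences from the Braf tumours.

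**Figure D2:**
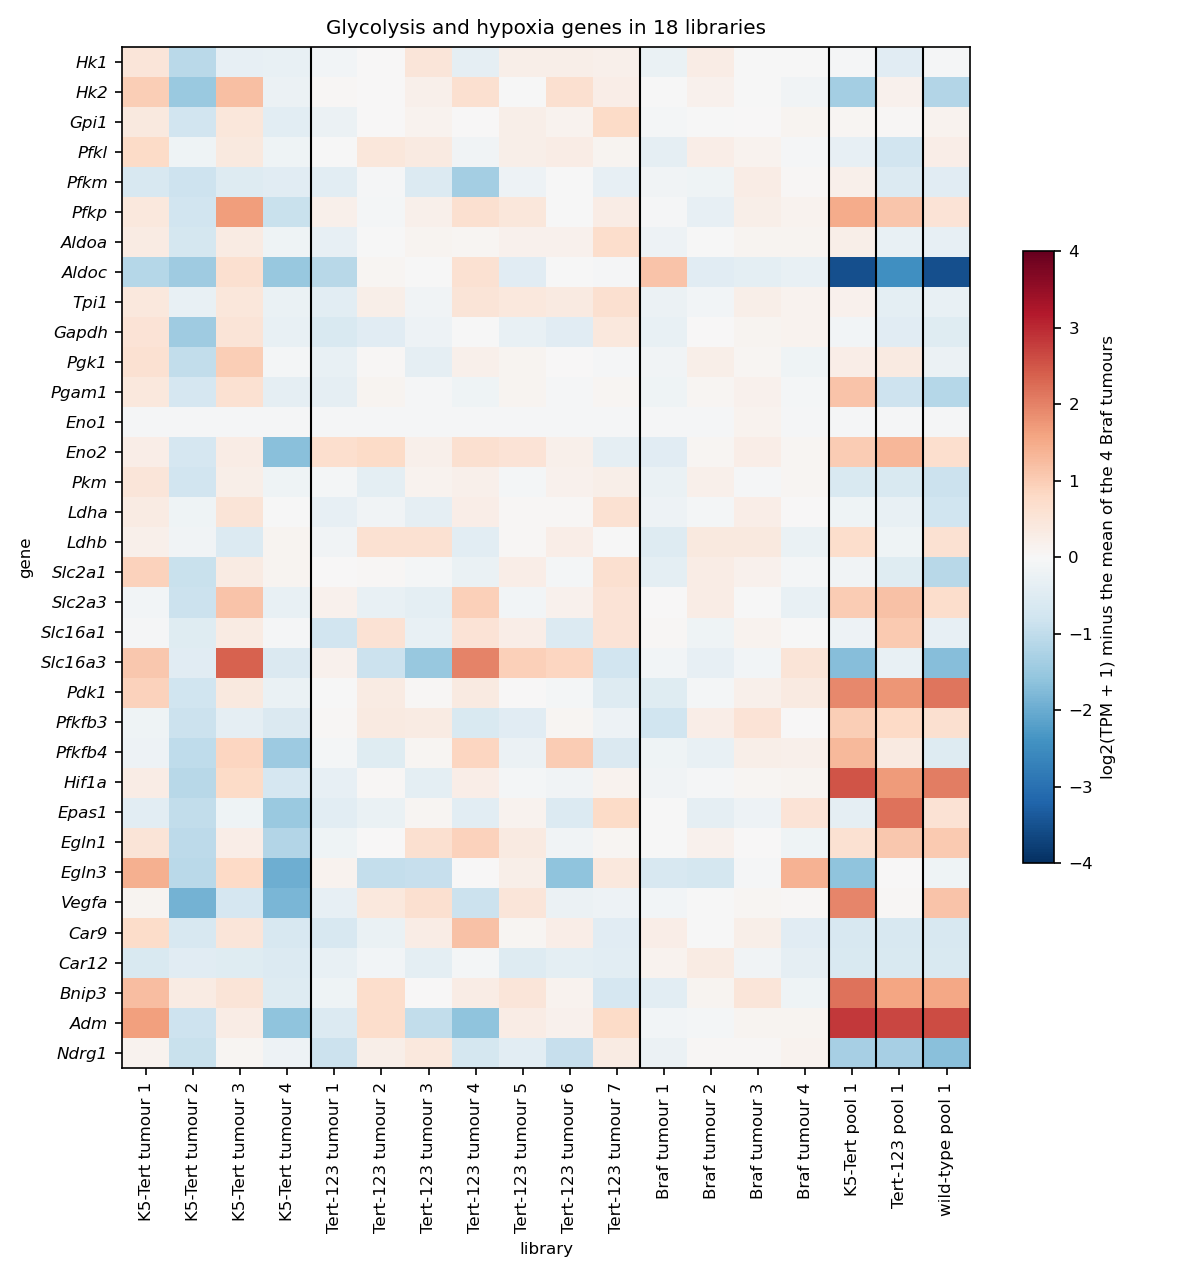
Each cell is log2(TPM + 1) of a gene (rows) in a library (columns) minus the mean of the 4 Braf tumours; red is higher and blue lower, and vertical lines part the groups. The 3 pools at the right differ most in Hif1a, Adm, Bnip3 and Pdk1 (red) and in Aldoc and Ndrg1 (blue), and K5-Tert tumours 2 and 4 are blue for most genes.

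The comparison of tumours with BrafV600E against the pools without it asks what accompanies the Braf mutation in thyroid cells. Of the 34 genes, 23 passed the filter (4 or more libraries with at least 10 TPM) and entered a model with the Braf mutation and the Tert allele over all 18 libraries. Of these, 6 fell and 3 rose: Hif1a, Bnip3, Vegfa, Epas1, Pfkfb3 and Egln1 were lower in tumours, and Aldoc, Ndrg1 and Pkm were higher (limma, adjusted p under 0.05 over 7825 genes). Over all genes tested, 10% were called lower and 15.4% higher. The median log2 difference of the 23 genes was 0.13, beside 0.07 for all genes. With 1 library per pool, the spread comes almost wholly from the tumours. The count of lower genes was 3 without the K5-Tert pool and 4 without either of the other pools. Over all 7825 genes, 469 were lower without the K5-Tert pool, 805 without the Tert-123 pool and 670 without the wild-type pool. The plot of the Braf term shows all 23 genes.

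**Figure D3:**
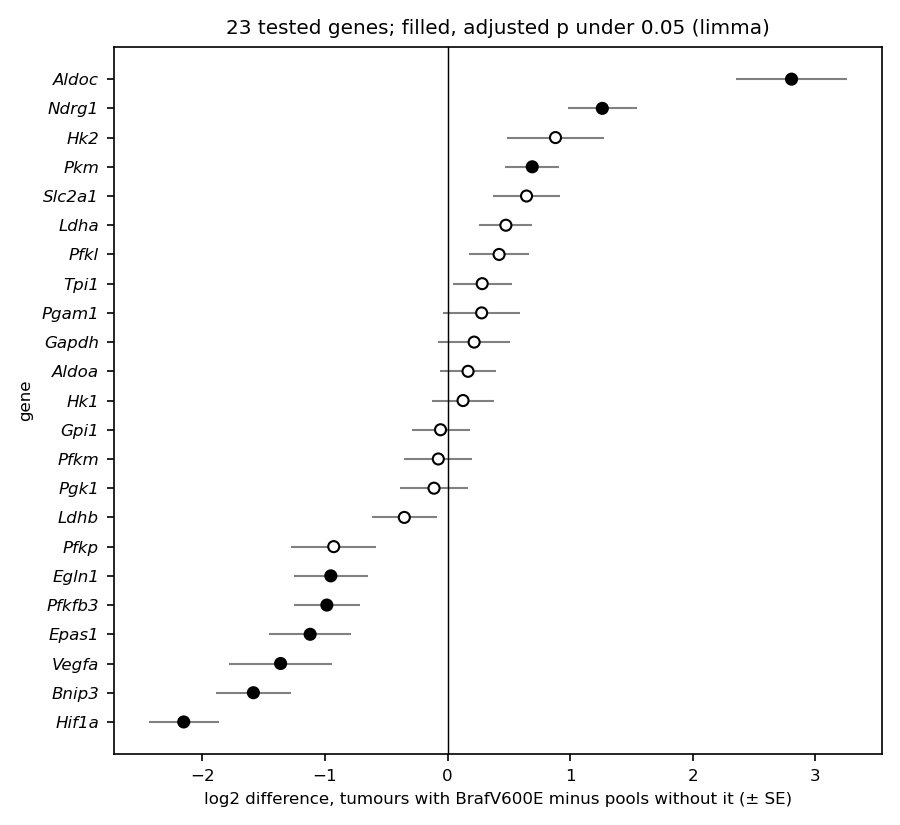
Log2 difference between tumours with BrafV600E and pools without it for the 23 tested genes, from the model that also holds the Tert allele; bars are ± 1 SE and filled points passed an adjusted p of 0.05 (limma). Aldoc, Ndrg1 and Pkm lie to the right among the filled points, and 6 filled points from Egln1 to Hif1a lie to the left.

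Hif1a, the oxygen-regulated subunit of the main hypoxia factor, showed the largest fall of the 23 tested genes. It had 11.7 to 45.6 TPM (median 26.0 TPM) in the 15 tumours, against 157 TPM in the K5-Tert pool, 88.3 TPM in the Tert-123 pool and 112 TPM in the wild-type pool. Every pool lay above every tumour, and the log2 difference was -2.15 ± 0.29 (SE, adjusted p = 6.41e-06). Epas1, the second oxygen-regulated subunit, had 15.8 to 78.2 TPM (median 37.4 TPM) in the tumours, against 35.1 TPM in the K5-Tert pool, 210.2 TPM in the Tert-123 pool and 68.0 TPM in the wild-type pool. Its groups overlapped, since the K5-Tert pool lay within the tumours' range, and its log2 difference of -1.12 ± 0.33 (SE, adjusted p = 0.0159) rests on the Tert-123 pool: without it the value was -0.48 ± 0.35 (SE, adjusted p = 0.360). Egln1, the main hydroxylase that marks HIF for degradation, had 5.59 to 26.9 TPM (median 14.0 TPM) in the tumours, against 21.6 TPM in the K5-Tert pool, 29.96 TPM in the Tert-123 pool and 29.7 TPM in the wild-type pool. Its log2 difference was -0.95 ± 0.30 (SE, adjusted p = 0.0228), and leaving out any 1 of the pools ended the call, with log2 differences of -0.94 ± 0.36 (SE, adjusted p = 0.0561) without the K5-Tert pool, -1.02 ± 0.38 (SE, adjusted p = 0.0580) without the Tert-123 pool and -0.90 ± 0.37 (SE, adjusted p = 0.102) without the wild-type pool. In these bulk libraries, fewer cells of a type and less RNA per cell cannot be told apart.

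Bnip3, a HIF target that starts mitophagy, had 5.30 to 22.6 TPM (median 9.95 TPM) in the tumours, against 43.3 TPM in the K5-Tert pool, 28.8 TPM in the Tert-123 pool and 27.7 TPM in the wild-type pool. All pools lay above all tumours (log2 difference -1.58 ± 0.30 SE, adjusted p = 0.000419), and Bnip3, like Hif1a, passed in each of the 31 alternative fits. Adm, the vasodilator peptide adrenomedullin, and Pdk1, the kinase that shuts pyruvate dehydrogenase, lay below the filter because only the pools reached 10 TPM. Adm had 0 to 8.58 TPM (median 2.28 TPM) in the tumours, against 20.9 TPM in the K5-Tert pool, 18.6 TPM in the Tert-123 pool and 17.7 TPM in the wild-type pool. Pdk1 had 1.06 to 5.87 TPM (median 2.66 TPM) in the tumours, against 12.8 TPM in the K5-Tert pool, 11.4 TPM in the Tert-123 pool and 15.1 TPM in the wild-type pool. Neither gene's groups overlapped. In the fit without a filter, over 22693 genes, their log2 differences were -2.81 ± 0.53 (SE, adjusted p = 0.00105) for Adm and -1.92 ± 0.31 (SE, adjusted p = 0.000264) for Pdk1. The windows of Bnip3, Adm and Pdk1 printed above hold 5, 2 and 1 of the motif matches, and the second window of Pdk1 holds 0.

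Pfkfb3, which makes the sugar bisphosphate that activates phosphofructokinase, had 15.1 to 41.5 TPM (median 24.8 TPM) in the tumours, against 56.9 TPM in the K5-Tert pool, 49.5 TPM in the Tert-123 pool and 44.7 TPM in the wild-type pool. The pools lay above all tumours, with a log2 difference of -0.98 ± 0.27 (SE, adjusted p = 0.00832), which became -0.75 ± 0.31 (SE, adjusted p = 0.0730) without the K5-Tert pool and -0.64 ± 0.41 (SE, adjusted p = 0.242) between the 4 Braf tumours and the wild-type pool alone. Vegfa had 32.0 to 190.4 TPM (median 113 TPM) in the tumours, against 470.2 TPM in the K5-Tert pool, 125 TPM in the Tert-123 pool and 271 TPM in the wild-type pool. Only the K5-Tert and wild-type pools lay above the tumours. Its log2 difference was -1.36 ± 0.42 (SE, adjusted p = 0.0199), and it was -0.57 ± 0.42 (SE, adjusted p = 0.325) without the K5-Tert pool and -1.46 ± 0.53 (SE, adjusted p = 0.0580) without the wild-type pool. Pfkfb4, a related kinase under the filter, overlapped, with 0.908 to 9.68 TPM in the tumours, against 11.9 TPM in the K5-Tert pool, 5.72 TPM in the Tert-123 pool and 2.71 TPM in the wild-type pool.

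The genes that rose did not share a step. Aldoc, the aldolase of brain and of hypoxic cells, had 3.02 to 24.3 TPM (median 8.29 TPM) in the tumours, against 0 TPM in the K5-Tert pool, 1.09 TPM in the Tert-123 pool and 0 TPM in the wild-type pool. All 15 tumours lay above all pools (log2 difference 2.81 ± 0.45 SE, adjusted p = 6.55e-05), but it passed the filter only through tumours, and with 2 pools listed at 0 the size depends on the pseudocount. Quantile normalization ended its call (log2 difference 1.09 ± 0.48 SE, adjusted p = 0.0859). Ndrg1 had 69.4 to 177 TPM (median 135 TPM) in the tumours, against 52.1 TPM in the K5-Tert pool, 52.6 TPM in the Tert-123 pool and 41.2 TPM in the wild-type pool, also without overlap (log2 difference 1.26 ± 0.28 SE, adjusted p = 0.00189), and it passed in each of 32 alternative fits. Pkm had 168 to 406 TPM (median 304 TPM) in the tumours, against 187 TPM in the K5-Tert pool, 187 TPM in the Tert-123 pool and 157 TPM in the wild-type pool. Only K5-Tert tumour 2 lay within the pools' range. Its log2 difference was 0.69 ± 0.22 (SE, adjusted p = 0.0230), with an adjusted p of 0.0711 without the Tert-123 pool and 0.130 without the wild-type pool.

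Counted without a test, 2 of the 23 tested genes (Aldoc and Ndrg1) were higher in every tumour than in every pool and 3 (Hif1a, Bnip3 and Pfkfb3) lower, beside 5.71% and 5.69% of all genes tested. These counts depend on the filter. Aldoc passed it only through tumours, and Adm and Pdk1, also lower in every tumour than in every pool, were left out by it. The remaining 14 tested genes did not pass. Slc2a1 had 30.1 to 106 TPM (median 58.6 TPM) in the tumours, against 50.5 TPM in the K5-Tert pool, 39.5 TPM in the Tert-123 pool and 25.7 TPM in the wild-type pool, with a log2 difference of 0.64 ± 0.28 (SE, adjusted p = 0.0929) that passed under TMM-type factors (0.63 ± 0.19 SE, adjusted p = 0.0125). Ldha had a log2 difference of 0.48 ± 0.22 (SE, adjusted p = 0.115) and Pgk1, which makes the first ATP of glycolysis, -0.11 ± 0.28 (SE, adjusted p = 0.817). Pfkp was the lowest of those that did not pass, with 6.42 to 43.0 TPM in tumours, against 37.7 TPM in the K5-Tert pool, 28.9 TPM in the Tert-123 pool and 19.3 TPM in the wild-type pool. Its log2 difference was -0.93 ± 0.35 (SE, adjusted p = 0.0546), and it passed under TMM-type factors (-0.94 ± 0.29 SE, adjusted p = 0.0142). With those factors 4 of the 23 genes were higher and 7 lower, beside 21.8% and 18.5% of all genes.

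**Figure D4:**
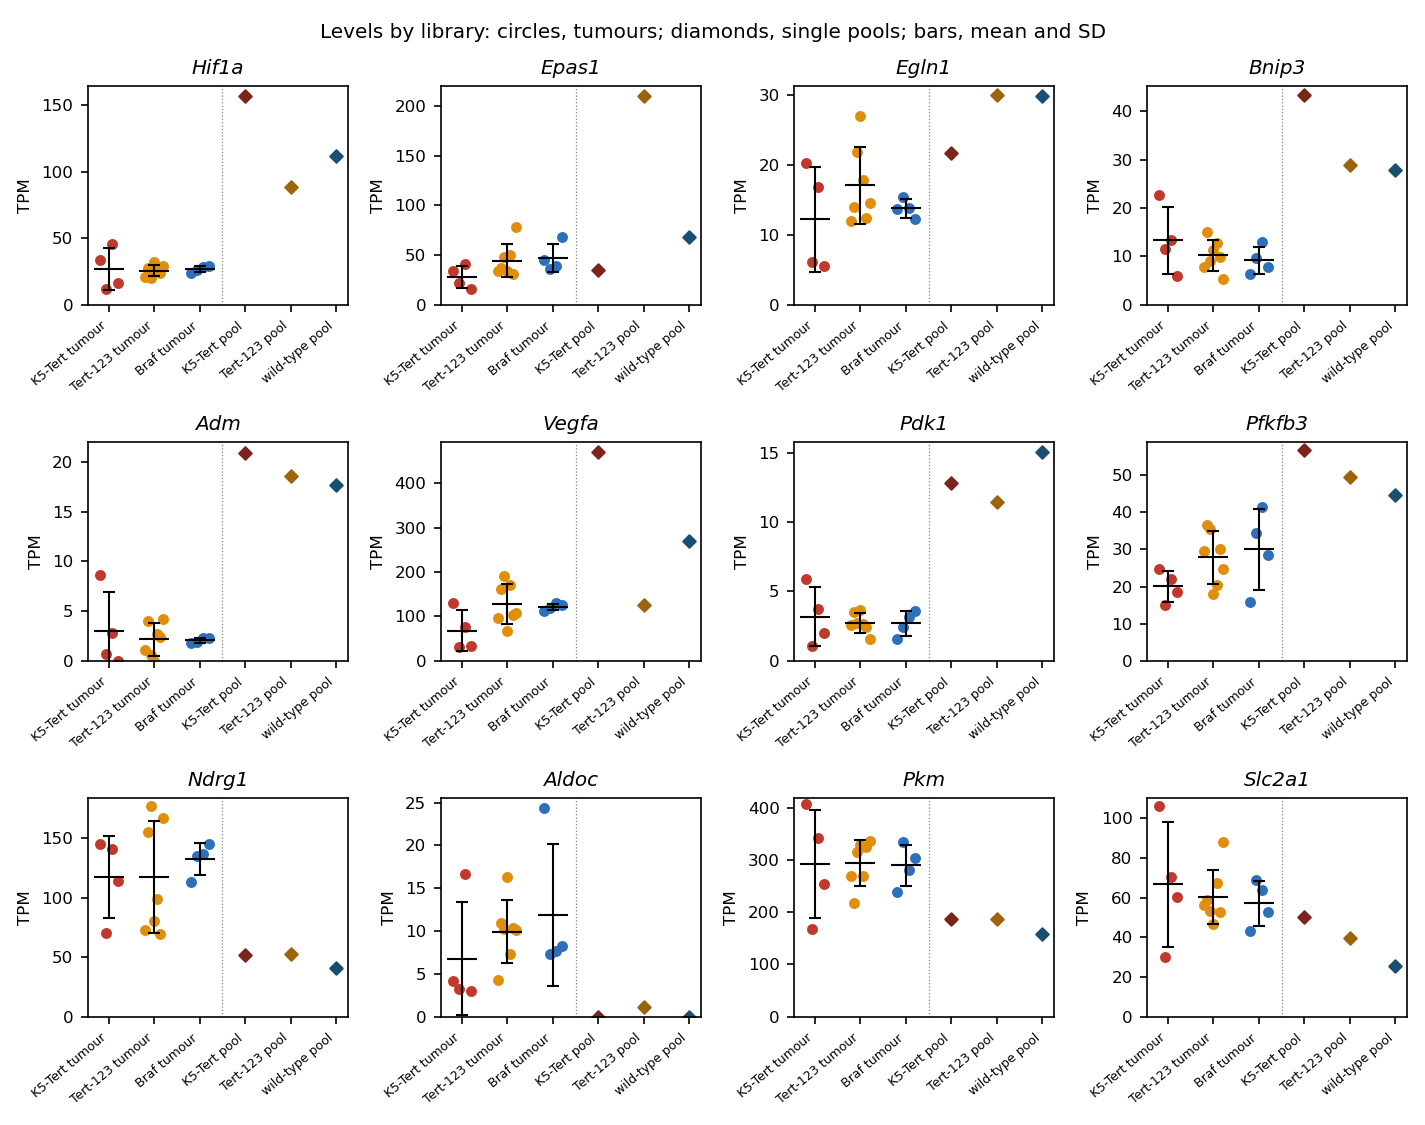
TPM of 12 genes by library: circles are single tumours, diamonds single pools, and black bars the mean and SD of each tumour group. Hif1a, Bnip3, Adm, Pdk1 and Pfkfb3 lie higher in all 3 pools than in any tumour, Ndrg1 and Aldoc lower, while Epas1 and Vegfa are high in 1 or 2 of the pools only.

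Markers of other cells and of handling moved with the same contrast. The 16 immediate-early and dissociation genes, which rise when live tissue is digested, summed to 678 to 2660 TPM in the tumours, against 12459 TPM in the K5-Tert pool, 9616 TPM in the Tert-123 pool and 7869 TPM in the wild-type pool, and all 16 were called lower in tumours. The 8 endothelial markers summed to 19.8 to 163 TPM in the tumours, against 117 TPM in the K5-Tert pool, 1094 TPM in the Tert-123 pool and 386 TPM in the wild-type pool, and 5 of 6 tested were called lower. The Tert-123 pool had the highest level of both the endothelial markers and Epas1. It also held the most C cell (2788 TPM), T cell (193 TPM) and adipocyte (169 TPM) marker RNA of the 18 libraries. The adipocyte sum was nearly all Fabp4 (166 TPM). In that pool 4 of the 6 adipocyte markers (Plin1, Cidec, Lep and Car3) were listed at 0, so the sum does not establish adipocytes. Markers of macrophages (223 to 5233 TPM in tumours, against 61.5 to 294 TPM in pools), fibroblasts (98.0 to 2460 TPM, against 44.2 to 360 TPM) and lung alveolar cells (3745 to 9721 TPM, against 349 to 957 TPM) were called higher in tumours for 6 of 8, 5 of 9 and 3 of 4 tested genes. The fourth tested alveolar gene, Ager, was called lower, with 122 to 345 TPM in the tumours, against 330.3 to 887 TPM in the pools. Most of the alveolar sum in tumours was Sftpb, at 2510.1 to 7423 TPM, against 6.38 to 47.8 TPM in the pools. Sftpc, a defining alveolar gene, had 20.03 TPM in Tert-123 tumour 7, 0 to 4.05 TPM in the other tumours and 0 in all 3 pools. Neutrophil and skeletal muscle markers summed to at most 80.5 and 25.9 TPM in any library, and the 4 haemoglobin genes were listed at 0 throughout. The part of these cells and of handling in the differences above was not tested.

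Whether a Tert transgene adds anything to the Braf mutation in these genes is the question of the K5-Tert and Braf tumours. As deposited, 1 of the 23 tested genes, Vegfa, was lower and 0 were higher (limma, 7498 genes; 0 higher and 3 lower at an unadjusted p under 0.05), beside 21.9% of all genes called lower and 0.587% higher. The median log2 difference was -0.08 for the 23 genes and -0.48 for all genes. Vegfa had 131, 32.0, 75.6 and 33.6 TPM in K5-Tert tumours 1 to 4, against 113, 119, 129 and 126 TPM in the Braf tumours. The groups overlapped, since K5-Tert tumour 1 exceeded all Braf tumours while tumours 2 and 4 were far below. The log2 difference was -1.07 ± 0.38 (SE, adjusted p = 0.0487), or -0.59 relative to the median of all genes. It was -0.55 ± 0.29 (SE, adjusted p = 0.207) with TMM-type factors, -0.80 ± 0.39 (SE, adjusted p = 0.194) without K5-Tert tumour 2, -0.82 ± 0.39 (SE, adjusted p = 0.174) without K5-Tert tumour 4 and -0.29 ± 0.36 (SE, adjusted p = 0.746) without both. Leaving out any of Tert-123 tumours 1, 2, 5, 6 and 7 or any Braf tumour also ended the call, though the log2 difference moved little (-1.07 without any Tert-123 tumour and -1.11 to -1.04 without a Braf tumour; adjusted p of 0.0533 to 0.116). In the other direction, 2 genes were lower without K5-Tert tumour 1 and 3 without K5-Tert tumour 3, beside 3520 and 1570 of all 7498 genes.

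The genes next in order of p did not pass. Epas1 had 33.5, 22.3, 40.7 and 15.8 TPM in the K5-Tert tumours, against 45.5, 35.5, 39.3 and 67.7 TPM in the Braf tumours, a log2 difference of -0.77 ± 0.32 (SE, adjusted p = 0.0813). Pfkm had 7.80, 6.75, 8.54 and 8.97 TPM in the K5-Tert tumours, against 11.3, 11.0, 15.7 and 13.0 TPM in the Braf tumours. It was the only tested gene of the set whose groups did not overlap, beside 16.2% of all genes lower in this way and 1.11% higher, and its log2 difference was -0.60 ± 0.28 (SE, adjusted p = 0.111). Aldoc had a log2 difference of -0.86 ± 0.46 (SE, adjusted p = 0.165). Hif1a had 33.3, 11.7, 45.6 and 16.3 TPM in the K5-Tert tumours, against 23.8, 26.0, 28.05 and 28.9 TPM in the Braf tumours. The Braf tumours lay inside the wider range of the K5-Tert tumours, and the log2 difference of -0.18 ± 0.31 (SE, adjusted p = 0.674) changed sign with TMM-type factors (0.32). Bnip3 showed 0.40 ± 0.35 (SE, adjusted p = 0.393), Slc2a1 0.11 ± 0.30 (SE, adjusted p = 0.794), Ldha 0.16 ± 0.24 (SE, adjusted p = 0.631) and Pgk1 0.13 ± 0.31 (SE, adjusted p = 0.759).

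The scaling of the libraries decided the count in this comparison. With TMM-type factors, which bring the median of all genes to 0.02, 7 of the 23 genes were called higher and 0 lower (Slc2a1, Pfkl, Aldoa, Tpi1, Pgam1, Pkm and Ldha), beside 6.42% of all genes higher and 8.78% lower. The median of the 23 genes was then 0.44. Pfkl had 31.9, 16.4, 24.2 and 16.2 TPM in the K5-Tert tumours, against 14.1, 22.2, 20.6 and 17.8 TPM in the Braf tumours, with 0.70 ± 0.15 (SE, adjusted p = 0.00952) under those factors. Ldha had 187, 131, 210.4 and 147 TPM in the K5-Tert tumours, against 129, 140.3, 177 and 151 TPM in the Braf tumours, with 0.69 ± 0.18 (SE, adjusted p = 0.0245). As deposited, both genes' groups overlapped. Without K5-Tert tumours 2 and 4, the count with TMM-type factors was 1 higher (Hk2, 1.22 ± 0.24 SE, adjusted p = 0.0309) and 0 lower. Over all 7498 genes, 48 were then higher and 104 lower. The median of the 23 genes was 0.56. Hk2 had 18.4, 2.505, 21.9 and 7.37 TPM in the K5-Tert tumours, against 8.71, 10.1, 8.85 and 8.00 TPM in the Braf tumours. Of the K5-Tert tumours, 1 and 3 lay above and tumours 2 and 4 below all Braf tumours. Quantile normalization and removal of the trend with transcript length each gave 2 higher and 0 lower. Over all genes, quantile normalization gave 194 higher and 490 lower of 7498, and removal of the length trend 367 higher and 570 lower of 7447.

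**Figure D5:**
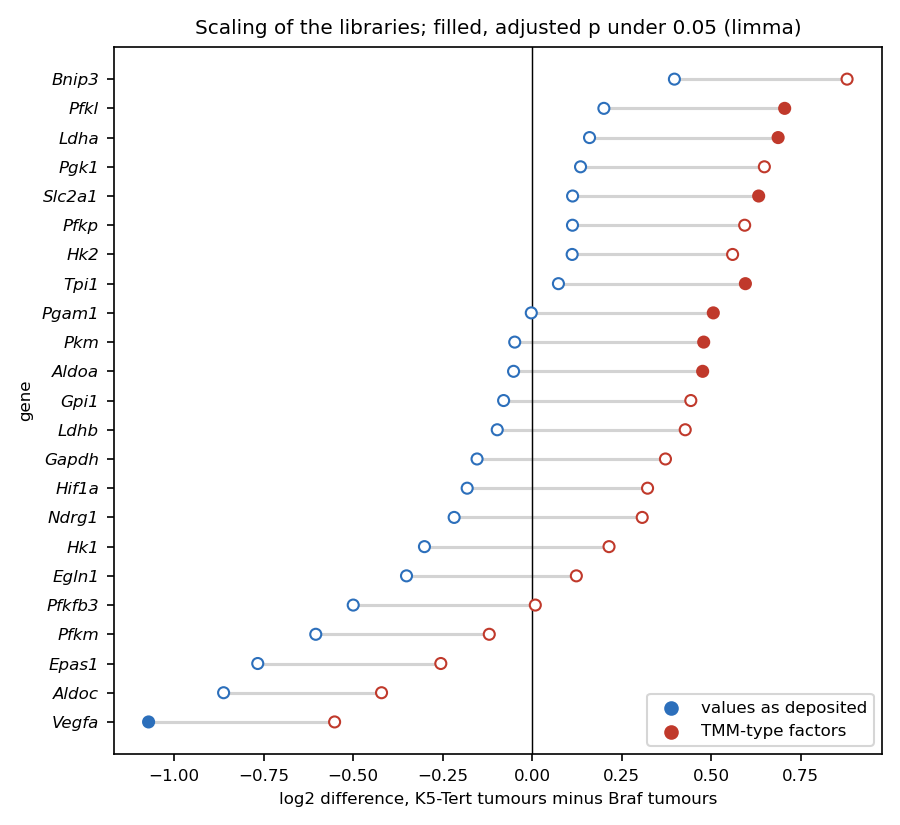
Log2 difference between K5-Tert and Braf tumours for the 23 tested genes, from the values as deposited (blue) and after TMM-type factors (red); filled points passed an adjusted p of 0.05 (limma). All genes move to the right by about the same step with the factors, and 7 genes then pass the threshold while Vegfa does not. The SE of Pfkl and Ldha was also smaller with the factors, so the step is not the only change.

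Against the Tert-123 tumours, the K5-Tert tumours showed the same single call as deposited: Vegfa was lower and 0 genes were higher (0 higher and 2 lower at an unadjusted p under 0.05), beside 29.5% of all genes lower and 0.76% higher. This comparison shares the 4 K5-Tert tumours with the one above. Vegfa had 66.8 to 190.4 TPM with a median of 107 TPM in the 7 Tert-123 tumours, and the log2 difference of the K5-Tert tumours from them was -1.06 ± 0.34 (SE, adjusted p = 0.0263). Without both K5-Tert tumours 2 and 4 it was -0.27 ± 0.33 (SE, adjusted p = 0.762), and the call also ended without K5-Tert tumour 2 (adjusted p = 0.147), K5-Tert tumour 4 (0.131), Tert-123 tumour 3 (0.0541) or Tert-123 tumour 5 (0.050001). The count of lower genes was 4 without K5-Tert tumour 1 and 3 without K5-Tert tumour 3, beside 3938 and 2284 of all 7498 genes. Epas1 had 30.6 to 78.2 TPM with a median of 37.4 TPM in the Tert-123 tumours and a log2 difference of -0.66 ± 0.28 (SE, adjusted p = 0.0743). Egln1 had 20.3, 6.12, 16.8 and 5.59 TPM in the K5-Tert tumours, against 12.02 to 26.9 TPM with a median of 14.6 TPM in the Tert-123 tumours, with -0.59 ± 0.30 (SE, adjusted p = 0.130). Tumours 2 and 4 lay below and tumours 1 and 3 within the range of the Tert-123 tumours. Aldoc showed -0.73 ± 0.41 (SE, adjusted p = 0.167).

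With TMM-type factors, 7 genes were again called higher than in the Tert-123 tumours and 0 lower (Slc2a1, Pfkl, Gapdh, Pgk1, Pgam1, Pkm and Ldha), beside 7.18% of all genes higher and 8.79% lower. Gapdh had 299, 76.4, 296 and 168 TPM in the K5-Tert tumours, against 134 to 276 TPM with a median of 167 TPM in the Tert-123 tumours, with 0.60 ± 0.19 (SE, adjusted p = 0.0473). Pgam1, the phosphoglycerate mutase, had 35.2, 15.8, 39.8 and 20.1 TPM in the K5-Tert tumours, against 20.1 to 28.1 TPM with a median of 25.3 TPM in the Tert-123 tumours, with 0.55 ± 0.12 (SE, adjusted p = 0.0101). Both ranges overlapped as deposited, as did those of every tested gene of the set, beside 5.25% of all genes wholly lower and 0.213% wholly higher. Without K5-Tert tumours 2 and 4 the count was 4 higher (Hk2, Gapdh, Pgk1 and Pgam1) and 0 lower, beside 53 and 92 of all 7498 genes. Hif1a had log2 differences of -0.12 ± 0.27 (SE, adjusted p = 0.747) as deposited and 0.39 ± 0.19 (SE, adjusted p = 0.184) with the factors, Bnip3 0.28 ± 0.31 (SE, adjusted p = 0.476) and 0.76 ± 0.27 (SE, adjusted p = 0.0682). The immediate-early genes summed to 1130 to 2346 TPM in the K5-Tert tumours, 678 to 2660 TPM in the Tert-123 tumours and 685 to 1114 TPM in the Braf tumours. In the K5-Tert tumours 6 of those 16 were called higher than in the Tert-123 tumours as deposited and 11 with TMM-type factors, and 7 and 11 were called higher than in the Braf tumours. Without K5-Tert tumours 2 and 4 these counts were 1 and 3 against either group. Of the tested fibroblast markers 2 of 8 were higher than in either group as deposited, and of the thyrocyte markers 3 of 7 lower; without K5-Tert tumours 2 and 4 both counts were 0. Their part in these results was not tested.

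The Tert-123C>T allele was not accompanied by a detected change in any of the 23 genes. Between Tert-123 and Braf tumours, 0 were called in either direction, beside 0% of all genes higher and 0% lower, and 0 of the 23 (50 of all 7498 genes) had an unadjusted p under 0.05 (limma). The median log2 differences were 0.02 for the 23 genes and -0.01 for all genes. The groups of all 23 genes overlapped, beside 0.0267% of all genes wholly higher and 0.08% wholly lower. The smallest p among the 23 belonged to Pfkm, with 4.36 to 12.5 TPM with a median of 9.80 TPM in the Tert-123 tumours, against 11.3, 11.0, 15.7 and 13.0 TPM in the Braf tumours and a log2 difference of -0.42 ± 0.25 (SE, adjusted p = 0.9997). Tpi1, the triose phosphate isomerase, showed 0.23 ± 0.23 (SE, adjusted p = 0.9997), Ndrg1 -0.27 ± 0.28 (SE, adjusted p = 0.9997) and Pfkl 0.18 ± 0.21 (SE, adjusted p = 0.9997). Hif1a had 20.1 to 32.5 TPM with a median of 25.4 TPM in the Tert-123 tumours, against 23.8, 26.0, 28.05 and 28.9 TPM in the Braf tumours, and a log2 difference of -0.07 ± 0.27 (SE, adjusted p = 0.9997). Vegfa showed -0.01 ± 0.34 (SE, adjusted p = 0.9997), Epas1 -0.10 ± 0.28 (SE, adjusted p = 0.9997) and Bnip3 0.11 ± 0.31 (SE, adjusted p = 0.9997). Slc2a1, Ldha and Pgk1 showed 0.08 ± 0.27, 0.02 ± 0.21 and -0.04 ± 0.27 (SE, adjusted p = 0.9997 for each).

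Ratios between genes were taken within each library as differences of log2(TPM + 1), which the scaling of a library still touches where a gene is low. For 10 pairs of genes the ratio was compared between the 3 tumour groups, and 0 of 30 exact permutation tests (two-sided) passed after adjustment over the 30. The 30 include the 3 tests of Eno2 to Eno1, which cannot be read. With 4 tumours against 4 there are 70 arrangements and the smallest p possible is 0.0286, and with 4 against 7 there are 330 arrangements. In either design the smallest p possible for 1 ratio alone would not pass after adjustment over 30. The count of 0 therefore does not show that the ratios were alike. The ratio of Pfkm to Pfkl had a log2 mean of -1.11 ± 0.33 in the 7 Tert-123 tumours, against -0.51 ± 0.29 in the 4 Braf tumours (SD), with an exact permutation p of 0.0242 and an adjusted p of 0.514. In the 4 K5-Tert tumours it was -1.31 ± 0.47, a difference of -0.80 from the Braf tumours with an exact permutation p of 0.0571 (adjusted p = 0.514). The ratio of Epas1 to Hif1a was 0.17 ± 0.48 in the K5-Tert tumours, 0.72 ± 0.49 in the Tert-123 tumours and 0.75 ± 0.37 in the Braf tumours, and did not pass either (exact permutation p = 0.0857 against the Braf tumours). The ratio of Ldhb to Ldha was -0.90 ± 0.54 in the K5-Tert tumours, -0.53 ± 0.63 in the Tert-123 tumours and -0.65 ± 0.38 in the Braf tumours. The ratio of Eno2 to Eno1 could not be read, since Eno1 was listed at 0.

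The pathways next to glycolysis were followed in 6 further lists, whose counts stand beside the 10% of all genes called lower, the 15.4% called higher and the median of 0.07 in this comparison. In the tumours with BrafV600E against the pools, 3 of 10 tested genes of pyruvate dehydrogenase and pyruvate import fell and 0 rose, with a list median of -0.59. These were Pdk4 (4.38 to 24.3 TPM in the tumours, against 51.7 to 71.0 TPM in the pools, log2 difference -2.36 ± 0.39 SE, adjusted p = 7.82e-05), Pdk2 (15.9 to 47.3 TPM in the tumours, against 51.3 to 97.7 TPM in the pools, log2 difference -1.29 ± 0.26 SE, adjusted p = 0.000615) and Pdha1 (20.0 to 55.5 TPM in the tumours, against 66.7 to 94.2 TPM in the pools, log2 difference -1.09 ± 0.26 SE, adjusted p = 0.00301). Pdk4 and Pdk2 are, like Pdk1, kinases that inhibit pyruvate dehydrogenase, and Pdha1 is the subunit they act on. All 3 had groups that did not overlap, beside 5.69% of all genes tested that were lower in this way. In the pentose phosphate pathway 2 of 9 rose and 0 fell: H6pd, the dehydrogenase of the endoplasmic reticulum (52.6 to 117 TPM in the tumours, against 22.4 to 44.6 TPM in the pools, log2 difference 1.41 ± 0.26 SE, adjusted p = 0.000250), and Prps2, a phosphoribosyl pyrophosphate synthetase (6.25 to 25.0 TPM in the tumours, against 3.23 to 8.01 TPM in the pools, log2 difference 1.05 ± 0.29 SE, adjusted p = 0.00995). The list median was 0.32. Of 8 tested genes of gluconeogenesis and glycogen, Pck2, the mitochondrial carboxykinase, rose (7.37 to 19.5 TPM in the tumours, against 3.15 to 9.11 TPM in the pools, log2 difference 1.33 ± 0.25 SE, adjusted p = 0.000426), and of 7 further glycolysis genes Bpgm, which makes bisphosphoglycerate, fell (-0.77 ± 0.28 SE, adjusted p = 0.0471), a call that ended with TMM-type factors (-0.79 ± 0.32 SE, adjusted p = 0.0597). Prps2 and Pck2 lay under 10 TPM in every pool and passed the filter only through tumours.

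Of 9 tested genes in the list of HIF pathway regulators, 1 rose and 0 fell, with a list median of 0.30. The gene that rose was Cdkn1b (0.60 ± 0.21 SE, adjusted p = 0.0372), a cell cycle inhibitor and not a direct regulator of HIF. Of 24 tested further HIF targets, 6 rose and 5 fell, beside 15.4% of all genes called higher and 10% lower, with a list median of 0.04 beside 0.07 for all genes. Plin2, which coats lipid droplets, rose (44.1 to 137 TPM in the tumours, against 9.18 to 29.6 TPM in the pools, log2 difference 2.11 ± 0.29 SE, adjusted p = 1.14e-05), as did Cp, the iron-oxidizing ceruloplasmin (54.7 to 159 TPM in the tumours, against 18.4 to 36.3 TPM in the pools, log2 difference 1.88 ± 0.28 SE, adjusted p = 3.11e-05). Hmox1, which breaks down haem, fell (21.4 to 78.6 TPM in the tumours, against 118 to 376 TPM in the pools, log2 difference -2.34 ± 0.33 SE, adjusted p = 1.45e-05), with its highest level in the Tert-123 pool.

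Between K5-Tert and Braf tumours, 3 of the 9 tested genes of the regulator list fell as deposited, beside 21.9% of all genes called lower and 0.587% higher, and the list median was -0.49 beside -0.48 for all genes. These were Cited2, which competes with HIF for its coactivators (-0.97 ± 0.27 SE, adjusted p = 0.0201), and the coactivators Crebbp (-1.03 ± 0.32 SE, adjusted p = 0.0306) and Ep300 (-1.01 ± 0.33 SE, adjusted p = 0.0374). Ep300 had 38.2, 6.85, 16.8 and 10.5 TPM in the K5-Tert tumours, against 26.1, 33.4, 32.2 and 32.8 TPM in the Braf tumours, so that K5-Tert tumour 1 lay above all Braf tumours. With TMM-type factors these 3 did not pass (log2 differences of -0.45 for Cited2, -0.53 for Crebbp and -0.52 for Ep300), and Egln2, another HIF hydroxylase, was higher (0.56 ± 0.17 SE, adjusted p = 0.0416). Also lower as deposited were Pdk2 (-0.63 ± 0.22 SE, adjusted p = 0.0457), Prps2 (-0.84 ± 0.29 SE, adjusted p = 0.0446) and Kdm3a, a histone demethylase that HIF induces (-0.72 ± 0.24 SE, adjusted p = 0.0404), 1 of 10, 1 of 9 and 1 of 22 tested genes of their lists. With TMM-type factors, Bsg, the chaperone of the lactate carriers, was higher (0.81 ± 0.19 SE, adjusted p = 0.0155), as were 3 of 9 pentose phosphate genes, among them Tkt, the transketolase (0.72 ± 0.21 SE, adjusted p = 0.0348). None of these calls was made without K5-Tert tumours 2 and 4, which leaves 2 K5-Tert tumours. As deposited, 0 genes of the 6 lists were then called, where log2 differences were -0.64 for Cited2 (adjusted p = 0.335), -0.33 for Crebbp (adjusted p = 0.578) and -0.28 for Ep300 (adjusted p = 0.660), and with TMM-type factors 1 of 22 further HIF targets was higher. Over all 7498 genes, 5 were then called higher and 16 lower as deposited, and 48 and 104 with TMM-type factors. None of the 6 lists had a called gene between Tert-123 and Braf tumours (0 genes by limma).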

How the data were processed

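RNA sequencing of 18 libraries was deposited by the authors as 1 table of normalized values. The deposited values were treated as TPM because each column sums to 1000000, although the table itself is called normalized counts. Not given in the sources used here are the aligner, the counting tool, the build and the annotation. Per the series text, RNA came from 9000 to 20000 sorted cells, libraries were made by a low-input protocol with 14 cycles of PCR, and reads were paired and 100 bases long. Without counts, the depth is unknown. The 26 entries whose names had turned into dates were left out. Groups came from the genotype labels.

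Genes at 10 TPM or more in at least 4 libraries of a fit entered limma (version 3.58.1, under R version 4.3.3) as log2(TPM + 1), and the prior variance followed the mean. The 15 tumours were fitted together (7498 genes), and all 18 libraries with Braf mutation and Tert allele as terms (7825 genes). All tests were two-sided. A gene was called at an adjusted p under 0.05, by the Benjamini-Hochberg method across every gene of that fit. Log2 differences are on the log2(TPM + 1) scale, which understates changes of low genes. TMM-type factors were computed from TPM with trims of 30% and 5%. Ratios were compared by exact permutation in Python 3.11.15 with scipy 1.17.1. The steps were tested on simulated data. Named are all genes of the set past the threshold in a comparison, those with the smallest p where fewer than 4 passed, 9 genes in any case (Hif1a, Epas1, Slc2a1, Ldha, Pgk1, Vegfa, Egln3, Car9 and Bnip3), and up to 3 called genes of each further list by p; others were named after their values were seen. The genes and lists were chosen with earlier results of these data known. Alternatives covered the pseudocount, filter, scaling, transcript length, Xist as covariate, the samples in the fit and leaving out each library.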

Additional observations from a re-analysis of the deposited data

Results flagged for a closer look

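Of the 102 gene-by-group sets of 4 or 7 tumours, 7 held a library far from the others, where chance gives about 1 in 20. Tert-123 tumour 7 stood apart in 3 genes. It had 147 TPM of Gpi1, against 73.8 to 102 TPM in the other Tert-123 tumours, 535 TPM of Aldoa, against 264 to 375 TPM, and 78.2 TPM of Epas1, against 30.6 to 49.9 TPM. It is also the library with the smallest share of Rpph1 (43.7%), and the part of that share in these values was not tested. Aldoc was high in K5-Tert tumour 3 (16.6 TPM, against 3.02 to 4.14 TPM in the other K5-Tert tumours) and in Braf tumour 1 (24.3 TPM, against 7.27 to 8.29 TPM in the other Braf tumours). Eno1 had 0.155 TPM in Braf tumour 3 and was listed at 0 in the other Braf tumours. Car9 had 2.55 TPM in Tert-123 tumour 4, against 0 to 0.928 TPM in the other Tert-123 tumours.

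The difference between tumours and pool was itself compared between Tert backgrounds. With K5-Tert, the difference of Pgam1 was lower than without a Tert allele by a log2 value of -2.29 (limma interaction, adjusted p = 0.0356), which was called in 1 of 23 genes, beside 2.48% of all genes, and in 0 of 23 for Tert-123C>T, beside 0.716% (limma). Pgam1 had 58.6 TPM in the K5-Tert pool, 14.1 TPM in the Tert-123 pool and 11.2 TPM in the wild-type pool, so the value rests on single libraries, and the spread in this test is that of the tumours alone. Of its 100-base windows, 39.7% occur in other genes.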

How the results depend on the processing

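The counts of called genes depended on the scaling and on single libraries, and the cause was not tested. Between K5-Tert and Braf tumours (0 higher and 1 lower as deposited), 7 were higher with TMM-type factors, 2 with quantile normalization, 2 with the length trend removed and 1 with TMM-type factors without K5-Tert tumours 2 and 4. Over all genes, in the same order, 481 and 194 of 7498, 367 of 7447 and 48 of 7498 were higher. The lower count was 0 with a pseudocount of 5, no filter, a filter at 50 TPM, TMM-type factors, quantile normalization, rescaling without Rpph1, the length trend removed, only the groups compared, Xist as covariate, and without K5-Tert tumours 2 and 4 under either scaling; it was 0 to 3 with 1 library left out. Over all genes, 16 to 2062 were lower in those fits and 397 to 3520 with 1 library left out. Between K5-Tert and Tert-123 tumours, the higher count was 7, 2, 1, 3 and 4 with TMM-type factors, quantile normalization, rescaling without Rpph1, the length trend removed, and TMM-type factors without K5-Tert tumours 2 and 4. Over all genes, in the same order, 538 and 218 of 7498, 193 of 10506, 396 of 7447 and 53 of 7498 were higher. The lower count was 0 in those 5 fits, with no filter, only the groups compared, Xist as covariate, or without K5-Tert tumours 2 and 4, and 0 to 4 with 1 library left out. Over all genes, 19 to 2088 were lower in those fits and 552 to 3938 with 1 library left out. For tumours with BrafV600E against pools (3 higher and 6 lower), the higher count was 5 rescaled without Rpph1 and 6 without K5-Tert tumours 2 and 4. It was 5 with TMM-type factors and K5-Tert tumours 2 and 4 left out together, and 5 without the K5-Tert tumours and pool. Over all genes these were 2257 of 10819, then 1854, 1706 and 2422 of 7825. The lower count was 2 with a filter at 50 TPM, where 12 genes of the set were tested and Hif1a, Bnip3, Pfkfb3, Egln1 and Aldoc were not. It was 9 rescaled without Rpph1 and 8 with no filter, beside 1556 of 10819 and 1423 of 22693 of all genes. Between the 4 Braf tumours and the wild-type pool alone, median log2 differences were 0.24 for the 23 genes and 0.32 for all genes. The main fit gave 0.13 and 0.07. The set had 34 tested genes with no filter, 11 or 12 with a filter at 50 TPM and 26 or 29 rescaled without Rpph1. With 1 library left out the higher count was 2 to 5 and the lower count 3 to 7, beside 768 to 1826 and 469 to 901 of all 7825 genes. The alternatives without K5-Tert tumours 2 and 4, and without the K5-Tert tumours and pool, were chosen after seeing the data. Between Tert-123 and Braf tumours the counts were 0 in each alternative run. None of the differences that turned sign had passed the threshold. For K5-Tert against Braf tumours, the log2 difference of Hif1a turned sign and was 0.32 with TMM-type factors, 0.26 with quantile normalization, 0.33 with the length trend removed, 0.079 with Xist as covariate, 0.53 without K5-Tert tumours 2 and 4, 0.67 with both changes and -0.49 to 0.13 with 1 library left out. That of Slc2a1 was -0.020 with Xist as covariate and -0.15 to 0.44 with 1 library left out. That of Pgk1 was -0.15 to 0.50 with 1 library left out. For Tert-123 against Braf tumours, the log2 difference of Hif1a turned sign and was 0.082 with Xist as covariate. That of Epas1 was -0.25 to 0.082 with 1 library left out. That of Slc2a1 was -0.0051 rescaled without Rpph1 and -0.048 to 0.17 with 1 library left out. That of Ldha was -0.088 with quantile normalization, -0.064 rescaled without Rpph1, -0.035 with Xist as covariate and -0.079 to 0.10 with 1 library left out. That of Pgk1 was 0.067 with Xist as covariate and -0.10 to 0.037 with 1 library left out. That of Vegfa was 0.052 with Xist as covariate and -0.12 to 0.13 with 1 library left out. That of Bnip3 was -0.028 to 0.27 with 1 library left out. For K5-Tert against Tert-123 tumours, the log2 difference of Egln1 turned sign and was 4.4e-05 with the length trend removed, 0.16 without K5-Tert tumours 2 and 4 and 0.29 with both changes. That of Aldoc was 0.016 with both changes. That of Hif1a was 0.39 with TMM-type factors, 0.34 with quantile normalization, 0.12 rescaled without Rpph1, 0.39 with the length trend removed, 0.60 without K5-Tert tumours 2 and 4, 0.73 with both changes and -0.43 to 0.20 with 1 library left out. That of Slc2a1 was -0.022 with Xist as covariate and -0.23 to 0.37 with 1 library left out. That of Pgk1 was -0.11 to 0.55 with 1 library left out. That of Bnip3 was -5.9e-04 to 0.59 with 1 library left out. For tumours with BrafV600E against pools, the log2 difference of Pgk1 turned sign and was 0.24 between Braf tumours and the wild-type pool, 0.054 without the Tert-123 pool, 0.081 without K5-Tert tumours 2 and 4 and -0.28 to 0.054 with 1 library left out. A fit that leaves out a pool assumes that the remaining single pools vary like the tumours. No paired analysis was possible because the numbers of the libraries were given in the order of the series and pair nothing. The depth is unknown, so what it limits cannot be given.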
